A study of Homo sapiens with 18 samples.

Results

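Collagens, laminins and integrins are the genes described here, as they were expressed while human pluripotent stem cells were turned into neural ectoderm and then into brain progenitors. They were chosen by symbol alone, as collagen chains (COL, a type number, A and a chain number), laminin chains (LAMA, LAMB or LAMC and a number) and integrin subunits (ITGA or ITGB). Of the 37550 rows of the table, 87 matched these patterns. Of these, 4 were dropped: the binding-protein genes ITGB1BP1, ITGB1BP2 and ITGB3BP, and ITGB1P1, a pseudogene copy of ITGB1. The 83 members were 44 collagen, 12 laminin and 27 integrin genes, and 1 of the last, ITGBL1, encodes a protein that resembles a beta subunit without being one.

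RNA was measured in 18 poly-A-selected libraries of the wild-type H1 line, an established human pluripotent stem cell line, with 2 biological replicates in each of 9 groups. The hPSC group was undifferentiated at day 0, kept in mTeSR Plus. Every other group first passed through a definitive ectoderm medium on day 1, with the TGF-beta receptor inhibitor A8301, the MEK inhibitor trametinib, the porcupine inhibitor C59 and the BMP receptor inhibitor LDN193189, and was then replated as single cells with thiazovivin on Geltrex, a basement membrane extract. The aNE group (anterior neural ectoderm, day 2) received A8301 at 1 µM, LDN193189 at 100 nM and C59 at 1 µM, and the pNE group (posterior neural ectoderm, day 2) received the same A8301 and LDN193189 together with FGF2 (20 ng/mL), 50 nM of TTNPB, which activates retinoic acid receptors, and 1 µM of XAV939, a blocker of tankyrase. Both origins were then taken to day 4 in 1 of 3 media, named for the forebrain (suffix T, giving aNE_T and pNE_T), for the midbrain (suffix M) and for the hindbrain (suffix H). What these media held is not analysed here, beyond XAV939, LDN193189 and FGF2 in the forebrain medium. The plating density per cm2 was 37500 cells for both day-2 groups, but for the day-4 groups it was 75000 cells with aNE origin and 150000 with pNE origin, so that origin and plating density cannot be told apart at day 4. A change from day 2 to day 4 likewise holds the medium, the later day and the higher density together, and these cannot be told apart. The response to a medium means this whole change below. All groups come from 1 cell line.

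Collagens are triple-helical proteins built from 3 chains, which may come from the same gene or from several. Fibrillar collagens (types I, II, III, V, XI and others) form cables in connective tissue and cartilage, FACIT collagens (types IX, XII, XIV and others) sit on the surface of such fibrils, and type IV collagens form the net of the basement membrane. Laminins are cross-shaped trimers of an alpha, a beta and a gamma chain, and they are the main glycoproteins on which the neural epithelium rests at its basal side. Integrins are pairs of an alpha and a beta subunit that span the cell membrane and hold the cell to these proteins: the alpha subunit largely decides whether laminin, collagen or a protein with an RGD motif such as fibronectin is bound.

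The values are the deposited TPM (transcripts as a share of the library's total, a length-scaled abundance, so that levels of different genes can be set side by side). Each library listed 19239 to 21235 genes at more than 0 TPM. Depth is unknown, since TPM does not keep it. Replicate libraries correlated at 0.982 to 0.987 across genes, which are not independent replicates, and libraries of different groups at 0.879 to 0.968. In a check of the labels, the summed level of 6 pluripotency markers was 4596 to 4626 TPM in hPSC and 73.0 to 133 TPM at day 4. Such markers were still expressed in pNE at day 2. From there to pNE_T, ZFP42, TDGF1, POU5F1, L1TD1 and DPPA4 fell, by log2 fold changes of -5.29, -4.90, -4.79, -3.87 and -1.65, and no marker of the list was called higher. TDGF1 and L1TD1 were higher in pNE than in aNE (2.80 and 1.40). The summed level of 8 neural ectoderm markers was 309 to 319 TPM in hPSC, 960.2 to 998 in aNE, 657 to 795 in pNE and 471 to 1732 at day 4. In bulk RNA of this kind, fewer cells of a type and less RNA per cell cannot be told apart.

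Of the 83 members, 65 reached 1 TPM in at least 2 libraries and were tested, and 18 did not. The filter was applied to all libraries together, so a member could pass through 1 group alone. A member was called in a comparison if its adjusted p was under 0.05 and its log2 fold change was 1 or more, or -1 or less, on the log2(TPM + 1) scale, which understates the change of low genes. Log2 fold changes are given ± their standard error, levels as a pair of values are the 2 libraries of a group. Where leaving out 1 library ended a call whose value is given, the log2 value it ended at is given with that library's name. Single calls were refitted in this way only for members with a group mean of at least 10 TPM. For calls of other genes, the lack of such a value says nothing about how firm they are. The fit was limma's, over all 18 libraries, with p-values adjusted over 17033 tested genes by the Benjamini-Hochberg method. By this rule 55 members were called in at least 1 of 16 comparisons of 2 groups: 34 of 37 tested collagens, 14 of 19 tested integrins and 7 of 9 tested laminins. These were 84.6% of the tested members, beside 36.8% of all tested genes called in at least 1 of the 16. There were 296 such calls, and in 0 of them did the libraries of the 2 groups overlap. The call rule leaves little room for overlap with 2 libraries a group. The share over all tested genes is not given here, so this says nothing particular about the members. A group mean of at least 10 TPM was reached by 43 members, and 41 of these were called somewhere. The other two were LAMA1 and ITGAE.

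**Figure D1:**
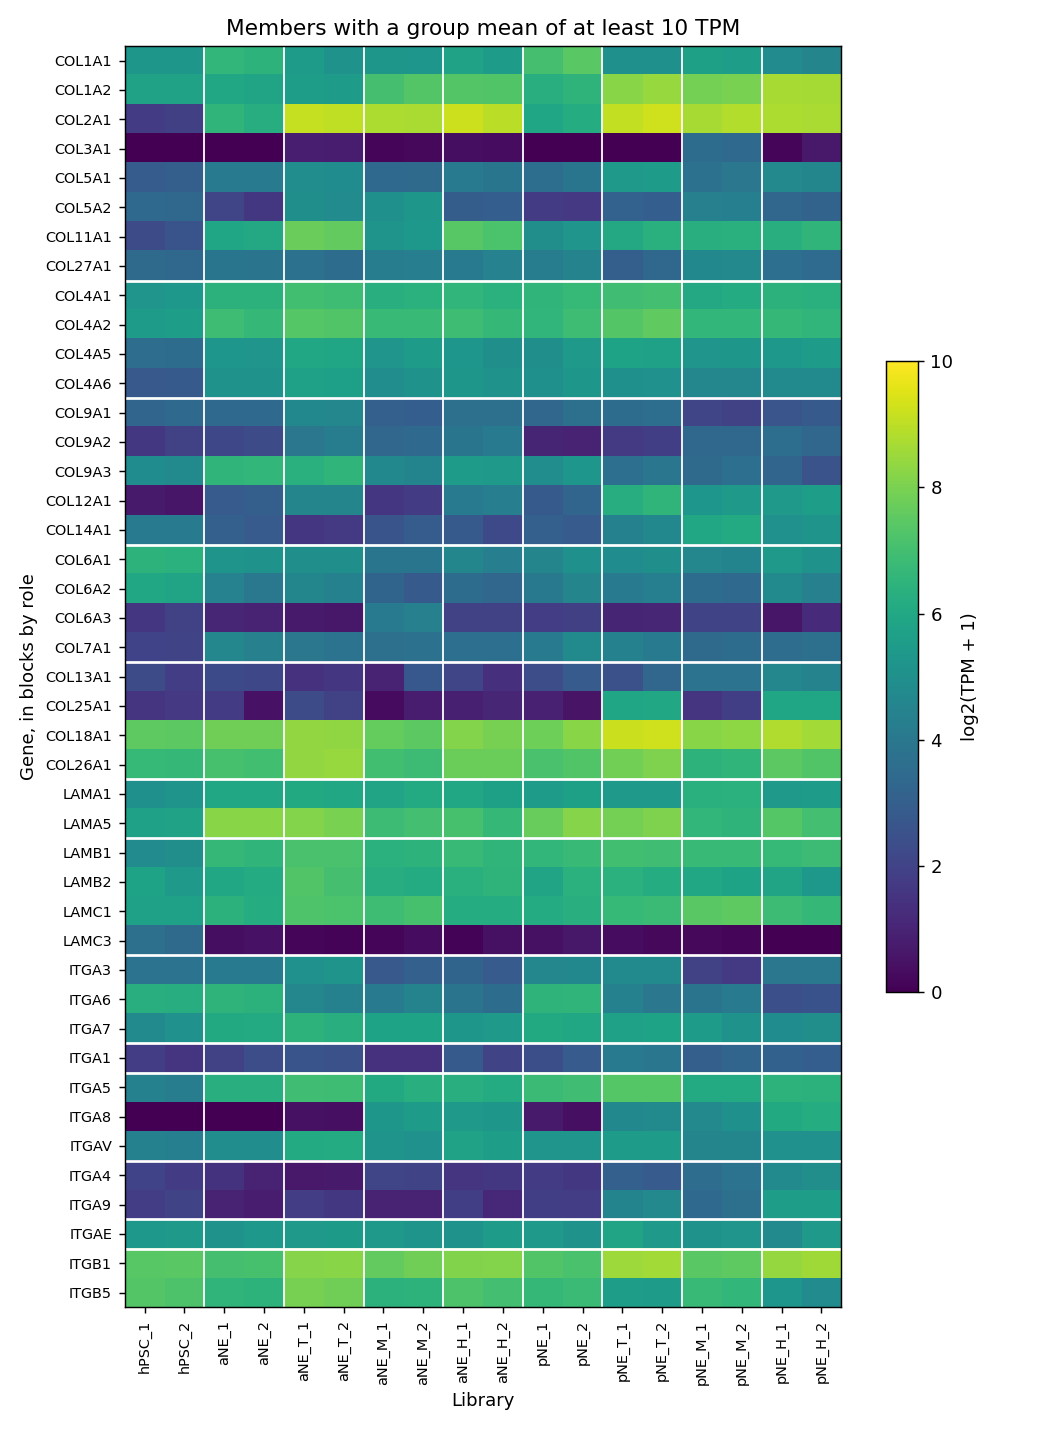
Levels of the 43 members with a group mean of at least 10 TPM in the 18 libraries. Rows are genes in blocks by role, columns are libraries, and the colour gives log2(TPM + 1). COL2A1 and COL18A1 are bright at day 4 in every library, COL25A1 is bright only in the pNE_T and pNE_H libraries, and ITGA8 is dark in hPSC, aNE, pNE and aNE_T.

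By summed TPM the collagens were the largest of the 3 families, at 734 to 2715 TPM per library, against 528 to 937 for the integrins and 233 to 805 for the laminins. On average over the libraries COL18A1 made up 18.8% of the collagen sum, COL2A1 18.5% and COL26A1 10.6%. ITGB1 made up 34.6% of the integrin sum, ITGB5 16.7% and ITGA5 12.7%. LAMA5 made up 32.7% of the laminin sum, LAMC1 20.7% and LAMB1 18.9%.

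The 6 type IV collagen genes lie in 3 head-to-head pairs, and the stretch between the starts of each pair, whole or in part, is shown because both genes of a pair are read outward from it. The sequences are RefSeq's on GRCh38.p14, plus strand, 5′ to 3′. Capitals mark matches of GGGCGG (the GC box) and of CCAAT (the CCAAT box) on either strand, which did not overlap here. The first is the whole 126 bases between the starts of COL4A1 and COL4A2, chr13:110307158-110307283, the second the 250 bases before COL4A3, chr2:227164374-227164623, and the third the 250 bases before COL4A5, chrX:108439588-108439837. For COL4A4 the start used was chr2:227164205. Its whole gene span reaches chr2:227164488, so by that span part of the second stretch lies inside COL4A4.
COL4A1/COL4A2: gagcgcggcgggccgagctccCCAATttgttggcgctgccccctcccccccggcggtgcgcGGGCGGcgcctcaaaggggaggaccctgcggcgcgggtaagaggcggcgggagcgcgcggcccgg
COL4A4/COL4A3: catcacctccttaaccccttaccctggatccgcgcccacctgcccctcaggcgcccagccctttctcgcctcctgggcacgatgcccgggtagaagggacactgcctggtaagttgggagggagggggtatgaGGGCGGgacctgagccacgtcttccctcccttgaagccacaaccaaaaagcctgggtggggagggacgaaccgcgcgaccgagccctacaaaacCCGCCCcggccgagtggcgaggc
COL4A6/COL4A5: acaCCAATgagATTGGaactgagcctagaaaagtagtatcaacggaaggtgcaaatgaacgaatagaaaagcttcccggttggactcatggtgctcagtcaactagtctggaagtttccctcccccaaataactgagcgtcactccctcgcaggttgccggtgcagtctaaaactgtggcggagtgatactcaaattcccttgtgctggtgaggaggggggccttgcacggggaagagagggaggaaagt
The COL4A1/COL4A2 stretch is 80.2% G or C and holds 1 GC box and 1 CCAAT box. The COL4A4/COL4A3 stretch is 66.4% G or C with 2 GC boxes and 0 CCAAT boxes, and the COL4A6/COL4A5 stretch is 51.2% G or C with 0 GC boxes and 2 CCAAT boxes. None of the 3 holds TATAAA. Over 35116 RefSeq windows of 300 bases around gene starts, 45.0% hold GGGCGG, 34.6% CCAAT and 11.5% TATAAA on either strand. The matches describe these letters only.

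COL4A1 was at 36.3 and 39.3 TPM in the 2 hPSC libraries, 85.4 and 84.8 in aNE and 92.8 and 102 in pNE. At day 4, COL4A1 measured 123 and 119 in aNE_T, 75.1 and 83.2 in aNE_M, 95.0 and 82.5 in aNE_H, 121 and 127 in pNE_T, 65.1 and 70.5 in pNE_M and 85.3 and 81.1 in pNE_H. The hPSC libraries were the lowest, and the highest were those of the 2 forebrain-medium groups. COL4A1 and COL4A2 are the chains of the ubiquitous type IV collagen, the sheet-forming collagen of nearly every basement membrane. COL4A2 stood at 45.6 and 46.8 TPM in hPSC, at 119 and 99.2 in aNE and at 95.0 and 117 in pNE. COL4A2 at day 4 was at 163 and 154 in aNE_T, 108 and 106 in aNE_M, 119 and 99.1 in aNE_H, 158 and 186 in pNE_T, 97.9 and 96.8 in pNE_M and 99.8 and 96.1 in pNE_H. The COL4A2 to COL4A1 ratio lay between 1.02 and 1.504 in all 18 libraries, a narrow range beside that of their levels. In GENCODE v29 their annotated bodies overlap at the shared start, and whether reads were assigned by strand is not given in the sources used here.

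In hPSC, COL4A5 measured 11.001 and 10.7 TPM, against 37.0 and 35.8 in aNE and 31.0 and 39.9 in pNE. Day-4 values of COL4A5 were 61.6 and 58.98 in aNE_T, 36.1 and 44.7 in aNE_M, 37.2 and 30.5 in aNE_H, 54.9 and 51.8 in pNE_T, 36.1 and 37.7 in pNE_M and 39.2 and 45.1 in pNE_H. COL4A5 and COL4A6, the X-linked pair, encode chains that make a second kind of type IV collagen together. COL4A6 levels were 5.95 and 6.17 TPM in hPSC, 33.6 and 33.3 in aNE and 31.9 and 38.2 in pNE. The day-4 levels of COL4A6 were 51.5 and 48.7 in aNE_T, 28.5 and 34.3 in aNE_M, 38.4 and 34.5 in aNE_H, 31.4 and 31.9 in pNE_T, 23.5 and 23.5 in pNE_M and 26.2 and 25.7 in pNE_H. The COL4A6 to COL4A5 ratio ran from 0.541 to 1.13, lowest in hPSC. The third pair, COL4A3 and COL4A4, which encode chains of kidney and lung basement membranes, stayed under 1 TPM as a group mean everywhere and were not tested. All 4 tested type IV chains were called higher in aNE than in hPSC, a comparison in which 13.5% of the 17033 tested genes were called, and higher in pNE than in hPSC, where 12.9% were. In aNE the log2 fold changes were 1.15 ± 0.08 for COL4A1, 1.22 ± 0.12 for COL4A2, 1.66 ± 0.13 for COL4A5 and 2.29 ± 0.10 for COL4A6, with adjusted p of at most 3.4e-06. In pNE they were 1.34 ± 0.08, 1.17 ± 0.12, 1.61 ± 0.13 and 2.34 ± 0.10 in the same order, with adjusted p of at most 5.2e-06. These 2 comparisons use the same hPSC libraries. No type IV chain was called in any comparison that involves day 4 or the 2 origins.

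Laminin alpha chains carry the part of the trimer that integrins bind. LAMA5 was at 52.0 and 53.3 TPM in the 2 hPSC libraries, 301 and 298 in aNE and 204 and 292 in pNE. At day 4, LAMA5 measured 283 and 252 in aNE_T, 115 and 127 in aNE_M, 136 and 99.7 in aNE_H, 239 and 267 in pNE_T, 96.5 and 88.6 in pNE_M and 164 and 128 in pNE_H. LAMA5 pairs with LAMB1 and LAMC1 in the laminin on which pluripotent cells are commonly cultured. Its hPSC libraries were the lowest of all, and both aNE libraries and both aNE_T libraries were above 250 TPM. LAMA5 rose in aNE (log2 fold change 2.49 ± 0.17, adjusted p = 1.6e-07) and pNE (log2 fold change 2.19 ± 0.17, adjusted p = 5.3e-07) against hPSC. It fell from day 2 in midbrain medium in both origins (-1.3048 ± 0.17 in aNE and -1.39 ± 0.17 in pNE), and in hindbrain medium it fell in aNE (-1.36 ± 0.17) while the value in pNE was -0.75 ± 0.17, adjusted p = 0.0036. LAMA5 overlaps ADRM1 on the other strand, which is itself at up to 215 TPM as a group mean.

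LAMA1, the alpha chain of early embryonic basement membranes, ranged from 31.6 to 82.7 TPM over the 18 libraries and was called nowhere. Its lowest libraries were hPSC (31.6 and 35.3) and its highest pNE_M (80.9 and 82.7). The LAMA5 to LAMA1 ratio ran from 1.07 in a pNE_M library to 6.44 in a pNE_T library. Of the other alpha chains, LAMA4, found in vessel walls, fell from hPSC to both day-2 groups (-1.16 ± 0.31 and -1.12 ± 0.31), LAMA2, the muscle and nerve laminin chain, was tested and called nowhere, and LAMA3, the epidermal chain, was not tested.

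LAMB1 stood at 27.3 and 29.6 TPM in hPSC, at 100.3 and 92.8 in aNE and at 96.8 and 107 in pNE. LAMB1 at day 4 was at 138 and 138 in aNE_T, 83.6 and 86.6 in aNE_M, 106 and 93.4 in aNE_H, 123 and 119.8 in pNE_T, 106 and 105 in pNE_M and 103 and 113 in pNE_H. Every LAMB1 library outside hPSC was above 80 TPM, and the gene rose in aNE (log2 fold change 1.73 ± 0.08, adjusted p = 3.4e-09) and pNE (log2 fold change 1.80 ± 0.08, adjusted p = 2.1e-09) and was called in no other comparison. LAMB1 is the beta chain of embryonic laminins, and its annotated body overlaps DLD on the other strand. In hPSC, LAMB2 measured 55.2 and 41.2 TPM, against 61.9 and 70.2 in aNE and 56.0 and 82.8 in pNE. Day-4 values of LAMB2 were 154 and 131 in aNE_T, 74.7 and 70.7 in aNE_M, 81.4 and 88.8 in aNE_H, 82.8 and 71.7 in pNE_T, 62.4 and 55.0 in pNE_M and 56.1 and 39.6 in pNE_H. LAMB2, a beta chain typical of synapses and kidney, was highest in aNE_T, where it rose from aNE (log2 fold change 1.0958 ± 0.20, adjusted p = 8.6e-04), its only call, which ended when 1 library was left out (0.98 without aNE_T replicate 1). The LAMB2 to LAMB1 ratio fell between 0.349 and 2.02.

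LAMC1 levels were 51.3 and 51.7 TPM in hPSC, 86.0 and 73.0 in aNE and 70.1 and 77.5 in pNE. Levels of LAMC1 at day 4 were 153 and 144 in aNE_T, 117 and 134 in aNE_M, 72.7 and 71.4 in aNE_H, 104 and 111 in pNE_T, 175 and 183 in pNE_M and 114 and 99.9 in pNE_H. LAMC1, the gamma chain shared by most laminins, was highest in pNE_M, and its pNE_M libraries stood above every other library. It rose in pNE_M against pNE (log2 fold change 1.26 ± 0.09, adjusted p = 2.9e-07), and aNE_H was below aNE_T (-1.03 ± 0.09, with -0.98 without aNE_T replicate 1). LAMC3 was at 11.9 and 9.94 TPM in the 2 hPSC libraries, 0.304 and 0.389 in aNE and 0.382 and 0.572 in pNE. At day 4, LAMC3 measured 0.141 and 0.0724 in aNE_T, 0.0957 and 0.255 in aNE_M, 0.0685 and 0.351 in aNE_H, 0.242 and 0.163 in pNE_T, 0.147 and 0.137 in pNE_M and 0.0169 and 0.0223 in pNE_H. LAMC3, a gamma chain studied in cortex and retina, was above 1 TPM in hPSC only and fell in aNE (log2 fold change -3.14 ± 0.19, adjusted p = 3.9e-08) and pNE (log2 fold change -3.01 ± 0.19, adjusted p = 5.5e-08). It thus passed the filter through hPSC alone.

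**Figure D2:**
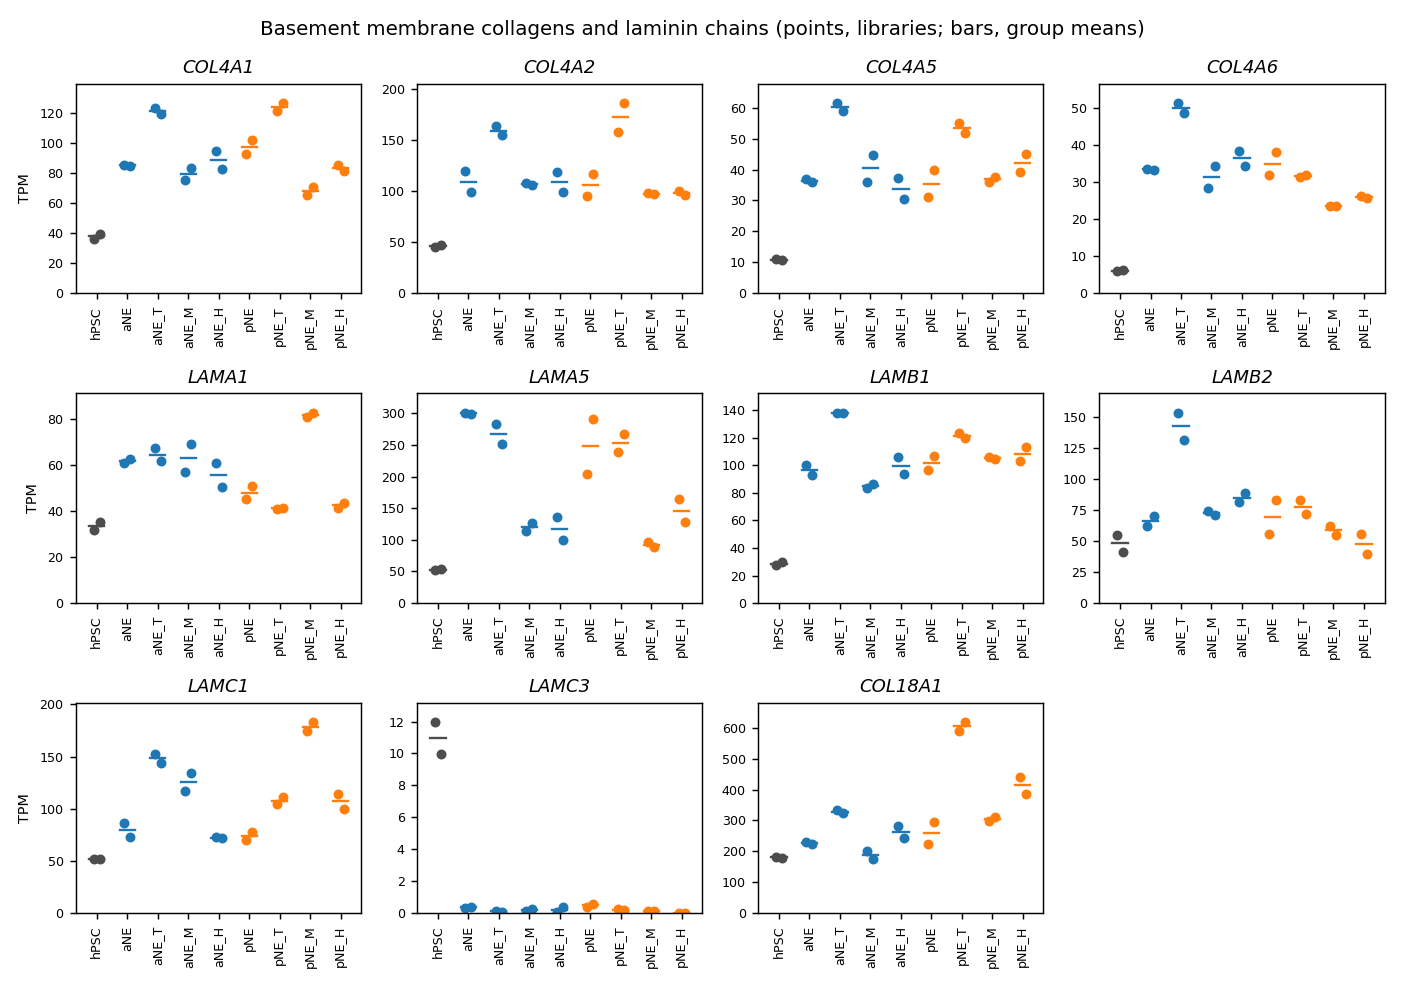
Type IV collagens, some laminin chains and COL18A1 in TPM, with each y axis from 0. Points are the 2 libraries of a group and bars the group mean, in grey for hPSC, blue for aNE and its derivatives and orange for pNE and its derivatives. The 4 type IV chains, LAMA5 and LAMB1 are lowest in hPSC, LAMC3 is above 1 TPM in hPSC only, and LAMC1 is highest in pNE_M.

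Among fibrillar collagens the 2 chains of type I collagen, the main collagen of bone and skin, parted after day 2. COL1A1 stood at 37.8 and 38.1 TPM in hPSC, at 97.4 and 87.7 in aNE and at 131 and 171 in pNE. COL1A1 at day 4 was at 45.5 and 33.0 in aNE_T, 38.3 and 37.6 in aNE_M, 52.8 and 44.1 in aNE_H, 31.3 and 31.3 in pNE_T, 50.3 and 47.9 in pNE_M and 27.6 and 22.5 in pNE_H. The 4 day-2 libraries stood above every other library. COL1A1 (chr17:50184101-50201631, RefSeq on GRCh38, as for all gene spans printed here) rose in aNE (log2 fold change 1.26 ± 0.15, adjusted p = 2.7e-05) and pNE (log2 fold change 1.95 ± 0.15, adjusted p = 5.8e-07). It then fell in 5 of the 6 changes from day 2 to day 4, with log2 fold changes of -1.23 ± 0.15 in aNE_T, -1.26 ± 0.15 in aNE_M, -2.22 ± 0.15 in pNE_T, -1.59 ± 0.15 in pNE_M and -2.54 ± 0.15 in pNE_H. The change in aNE_H was -0.92 ± 0.15, adjusted p = 5.0e-04.

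In hPSC, COL1A2 measured 53.2 and 52.7 TPM, against 60.3 and 56.3 in aNE and 75.2 and 90.1 in pNE. Day-4 values of COL1A2 were 47.1 and 45.4 in aNE_T, 131 and 157 in aNE_M, 160.5 and 156 in aNE_H, 301 and 348 in pNE_T, 237 and 255 in pNE_M and 409 and 405 in pNE_H. COL1A2 (chr7:94394895-94431227) was called in neither day-2 comparison with hPSC. It rose from day 2 in all 3 media in pNE, by 1.96 ± 0.10, 1.57 ± 0.10 and 2.29 ± 0.10 for T, M and H, and in aNE in midbrain (1.29 ± 0.10) and hindbrain medium (1.42 ± 0.10), with adjusted p of at most 5.0e-07. The forebrain-medium change in aNE was -0.33 ± 0.10, adjusted p = 0.026. All pNE-derived libraries stood above all aNE-derived ones: pNE_T was above aNE_T (log2 fold change 2.78 ± 0.10, adjusted p = 5.7e-10) and pNE_H above aNE_H (log2 fold change 1.36 ± 0.10, adjusted p = 5.5e-07), while for pNE_M against aNE_M the value was 0.77 ± 0.10, adjusted p = 1.2e-04, under the fold threshold.

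The COL1A2 to COL1A1 ratio was 1.41 and 1.39 in the hPSC libraries, 0.619 and 0.642 in aNE and 0.573 and 0.528 in pNE. At day 4 it was 1.04 and 1.37 in aNE_T, 3.41 and 4.18 in aNE_M, 3.04 and 3.53 in aNE_H, 9.61 and 11.1 in pNE_T, 4.72 and 5.33 in pNE_M and 14.8 and 17.98 in pNE_H. COL1A1 was thus the more abundant transcript in the day-2 libraries only, and COL1A2 in all the others. The type I molecule usually holds more COL1A1 than COL1A2 chains.

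**Figure D3:**
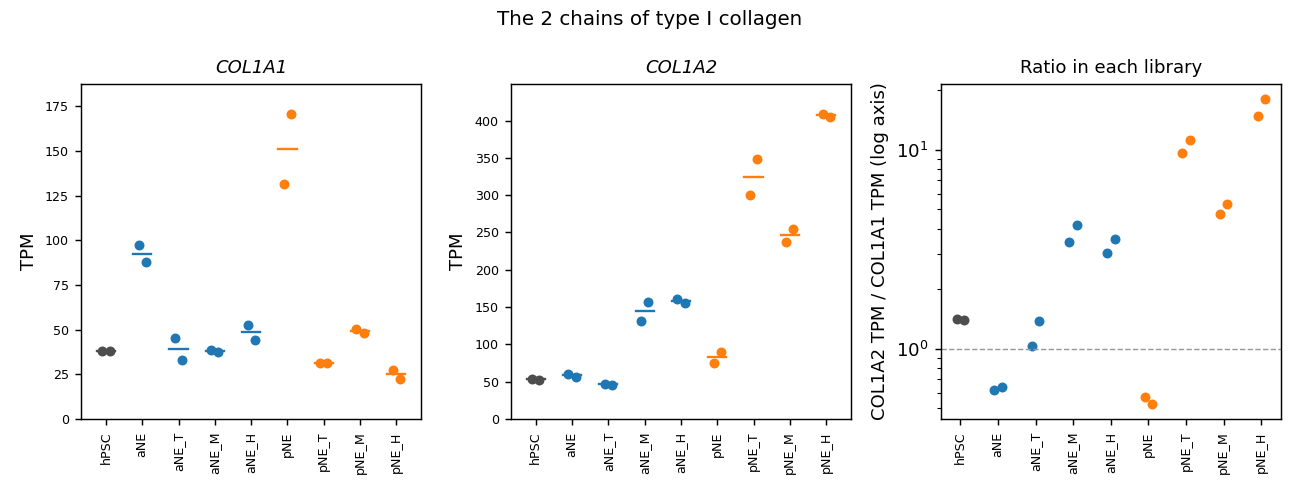
The 2 chains of type I collagen. The left and middle plots give TPM of COL1A1 and COL1A2 (points, libraries; bars, group means), and the right plot their ratio in each library on a log axis with a dashed line at 1. COL1A1 peaks in aNE and pNE, COL1A2 is highest in pNE_H, and the ratio runs from 0.528 in a pNE library to 17.98 in a pNE_H library.

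COL2A1 levels were 2.399 and 2.68 TPM in hPSC, 92.4 and 74.8 in aNE and 59.3 and 72.1 in pNE. The day-4 levels of COL2A1 were 553 and 532 in aNE_T, 436 and 423 in aNE_M, 605 and 504 in aNE_H, 538 and 614 in pNE_T, 409 and 457 in pNE_M and 436 and 419.6 in pNE_H. Type II collagen, best known from cartilage and also made transiently by the embryonic neural tube and notochord, was low in hPSC, intermediate at day 2 and high in every day-4 library. COL2A1 (chr12:47972967-48006212) had the largest rise of all members in aNE (log2 fold change 4.57 ± 0.12, adjusted p = 1.8e-11) and pNE (log2 fold change 4.23 ± 0.12, adjusted p = 3.7e-11) against hPSC. It rose again from day 2 in all 6 changes, between 2.36 ± 0.12 in aNE_M and 3.12 ± 0.12 in pNE_T, and it was called in no comparison of media or of origins. The notochord and floor plate markers, another source of COL2A1 in the embryo, summed to 1.40 to 11.9 TPM at day 4 over 6 genes. FERD3L was listed at 0 in every group, SHH was highest in pNE_T at 2.20 ± 0.271 (SD, n = 2, as in all such values), and their part in the COL2A1 level was not tested.

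COL11A1 was at 3.85 and 5.08 TPM in the 2 hPSC libraries, 59.2 and 64.7 in aNE and 30.1 and 36.2 in pNE. At day 4, COL11A1 measured 211 and 195 in aNE_T, 35.1 and 39.2 in aNE_M, 168 and 142 in aNE_H, 64.5 and 80.4 in pNE_T, 77.8 and 81.5 in pNE_M and 78.0 and 91.8 in pNE_H. COL11A1, whose chain joins type II collagen in cartilage fibrils, rose with COL2A1 in aNE (log2 fold change 3.53 ± 0.14, adjusted p = 1.0e-09) and pNE (log2 fold change 2.65 ± 0.14, adjusted p = 1.5e-08). Unlike COL2A1 it was called between media and origins: aNE_M was below aNE_T (log2 fold change -2.42 ± 0.14, adjusted p = 3.1e-08), pNE_T below aNE_T (log2 fold change -1.48 ± 0.14, adjusted p = 5.2e-06) and pNE_M above aNE_M (log2 fold change 1.08 ± 0.14, adjusted p = 1.2e-04). Its type XI partner COL11A2 was tested, reached 1.29 TPM at most as a group mean and was called nowhere.

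COL5A1 stood at 6.60 and 7.08 TPM in hPSC, at 16.6 and 16.7 in aNE and at 11.3 and 13.9 in pNE. COL5A1 at day 4 was at 29.1 and 28.1 in aNE_T, 9.56 and 9.94 in aNE_M, 16.1 and 13.7 in aNE_H, 40.1 and 43.6 in pNE_T, 12.7 and 14.6 in pNE_M and 24.8 and 23.1 in pNE_H. COL5A1, a chain of the minor fibrillar collagen that helps start type I fibrils, was highest in the 2 forebrain-medium groups. It rose in aNE (1.17 ± 0.11) against hPSC and in pNE_T against pNE (1.66 ± 0.11), and was lower in midbrain than in forebrain medium in aNE (-1.46 ± 0.11) and pNE (-1.55 ± 0.11). In hPSC, COL5A2 measured 9.69 and 9.39 TPM, against 3.26 and 2.04 in aNE and 2.32 and 2.19 in pNE. Day-4 values of COL5A2 were 30.7 and 27.7 in aNE_T, 31.2 and 38.0 in aNE_M, 6.74 and 6.86 in aNE_H, 7.90 and 6.87 in pNE_T, 19.6 and 18.7 in pNE_M and 8.79 and 8.21 in pNE_H. COL5A2, its partner chain, fell from hPSC to aNE (log2 fold change -1.55 ± 0.15, adjusted p = 3.9e-06) and pNE (log2 fold change -1.70 ± 0.15, adjusted p = 1.8e-06). It then rose in all 6 changes from day 2, most in aNE_M (3.30 ± 0.15) and aNE_T (3.07 ± 0.15) and least in aNE_H (1.12 ± 0.15, a call that ended at 0.87 without aNE replicate 2). The COL5A2 to COL5A1 ratio ran from 0.123 in an aNE library to 3.83 in an aNE_M library.

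By the spans of GENCODE v29, which differ slightly from those printed, COL3A1 (chr2:188974373-189012746) lies 19149 bases from COL5A2 (chr2:189031898-189441111) on chromosome 2, on the other strand. COL3A1 levels were 0.0210 and 0 TPM in hPSC, 0 and 0.0205 in aNE and 0.0138 and 0 in pNE. Levels of COL3A1 at day 4 were 0.780 and 0.735 in aNE_T, 0.143 and 0.169 in aNE_M, 0.296 and 0.247 in aNE_H, 0.0151 and 0.0238 in pNE_T, 10.6 and 9.74 in pNE_M and 0.105 and 0.617 in pNE_H. Only the pNE_M libraries were above 1 TPM, so COL3A1 was tested only because of the group where it is high. Type III collagen is the fibrillar collagen of soft, vessel-rich connective tissue. pNE_M was above pNE (log2 fold change 3.47 ± 0.19, adjusted p = 1.8e-08), aNE_M (log2 fold change 3.27 ± 0.19, adjusted p = 6.7e-08) and pNE_T (log2 fold change 3.45 ± 0.19, adjusted p = 2.4e-08). COL5A2, by contrast, was at 31.2 and 38.0 TPM in aNE_M, where COL3A1 was under 0.2 TPM.

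Of 10 neural crest and mesenchyme markers, 8 were called in pNE_M against aNE_M, 4 in each direction. FOXD3 (log2 fold change 3.96) and PRRX1 (1.90) were among those higher in pNE_M, and TFAP2B (-1.67), PAX3 (-1.59), ETS1 (-1.47) and NGFR (-1.03) were lower. PRRX1 was at 4.40 ± 1.60 TPM there and under 0.5 TPM as a mean in every other group. FOXD3 was at 15.9 ± 6.08 TPM in pNE_M, 33.5 ± 2.38 in hPSC and under 0.4 elsewhere. The summed level of the list was 100.0 to 109.8 TPM in pNE_M, within the 63.8 to 173 of all libraries, and HAND1 of the mesoderm list was at 5.35 ± 0.0144 TPM in pNE_M and under 1 TPM elsewhere. The part of such cells in the COL3A1 level was not tested.

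COL27A1 was at 9.95 and 9.51 TPM in the 2 hPSC libraries, 13.8 and 13.2 in aNE and 17.9 and 21.3 in pNE. At day 4, COL27A1 measured 12.2 and 10.6 in aNE_T, 17.7 and 18.4 in aNE_M, 17.0 and 20.8 in aNE_H, 7.06 and 9.40 in pNE_T, 24.6 and 25.4 in pNE_M and 11.7 and 10.3 in pNE_H. COL27A1, a fibrillar collagen of developing cartilage, was lowest in pNE_T and highest in pNE_M. It fell in pNE_T against pNE (log2 fold change -1.16 ± 0.14, adjusted p = 3.1e-05, a call that ended at -0.98 without pNE_T replicate 1), and pNE_M was above pNE_T (log2 fold change 1.51 ± 0.14, adjusted p = 3.2e-06). The remaining fibrillar members, COL5A3 and COL24A1, were under 1 TPM as group means, COL5A3 being tested and called nowhere.

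Type IX collagen, the FACIT collagen that coats type II fibrils, has 3 chain genes, and they did not move as a block. COL9A1 stood at 8.60 and 9.82 TPM in hPSC, at 9.77 and 9.70 in aNE and at 8.84 and 11.9 in pNE. COL9A1 at day 4 was at 24.6 and 24.0 in aNE_T, 7.43 and 6.98 in aNE_M, 12.0 and 11.8 in aNE_H, 10.7 and 11.2 in pNE_T, 3.27 and 2.97 in pNE_M and 5.23 and 6.09 in pNE_H. COL9A1 was highest in aNE_T and rose there from aNE (1.24 ± 0.13). In pNE_M it fell from pNE (-1.45 ± 0.13), and midbrain medium was below forebrain medium in aNE (-1.62 ± 0.13) and pNE (-1.53 ± 0.13).

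In hPSC, COL9A2 measured 2.07 and 2.94 TPM, against 3.52 and 3.91 in aNE and 1.04 and 1.01 in pNE. Day-4 values of COL9A2 were 14.7 and 17.2 in aNE_T, 8.97 and 9.73 in aNE_M, 13.8 and 15.9 in aNE_H, 2.24 and 2.64 in pNE_T, 9.21 and 9.42 in pNE_M and 11.1 and 8.77 in pNE_H. COL9A2 was lower in pNE than in aNE at day 2 (log2 fold change -1.22 ± 0.16, adjusted p = 1.6e-04). It rose from day 2 in all 3 media in aNE (1.85 ± 0.16, 1.13 ± 0.16 and 1.75 ± 0.16 in T, M and H) and in pNE_M (2.35 ± 0.16) and pNE_H (2.42 ± 0.16), which leaves pNE_T (0.76 ± 0.16, adjusted p = 0.0022) as the low day-4 group. COL9A3 levels were 27.8 and 26.3 TPM in hPSC, 93.5 and 97.0 in aNE and 28.7 and 37.4 in pNE. The day-4 levels of COL9A3 were 79.9 and 93.4 in aNE_T, 24.2 and 21.7 in aNE_M, 43.4 and 40.7 in aNE_H, 11.5 and 14.2 in pNE_T, 9.84 and 11.6 in pNE_M and 8.65 and 4.91 in pNE_H. COL9A3 was the most abundant of the 3 in aNE and was lower in pNE than in aNE already at day 2 (log2 fold change -1.51 ± 0.19, adjusted p = 1.6e-04). It stayed lower in pNE_T than aNE_T (-2.66 ± 0.19), in pNE_M than aNE_M (-1.03 ± 0.19, ending at -0.96 without aNE_M replicate 1 and -0.93 without pNE_M replicate 1) and in pNE_H than aNE_H (-2.51 ± 0.19). COL9A3 overlaps TCFL5 on the other strand, whose highest group mean was 14.4 TPM.

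COL12A1 was at 0.630 and 0.527 TPM in the 2 hPSC libraries, 6.30 and 7.21 in aNE and 6.05 and 8.55 in pNE. At day 4, COL12A1 measured 22.7 and 22.3 in aNE_T, 2.00 and 2.39 in aNE_M, 15.8 and 18.2 in aNE_H, 74.2 and 93.2 in pNE_T, 36.7 and 40.0 in pNE_M and 40.0 and 47.6 in pNE_H. COL12A1 (chr6:75084326-75206053), a FACIT collagen of tendon and of tissue under tension, rose at day 2 in aNE (2.30 ± 0.16) and pNE (2.38 ± 0.16). From day 2 it rose in all media in pNE and in forebrain and hindbrain medium in aNE, whereas in aNE_M it fell (log2 fold change -1.28 ± 0.16, adjusted p = 3.6e-05). pNE-derived cells had more in each medium: the log2 difference was 1.84 ± 0.16 in forebrain, 3.63 ± 0.16 in midbrain and 1.32 ± 0.16 in hindbrain medium, with adjusted p of at most 5.1e-05.

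COL14A1 stood at 16.1 and 16.7 TPM in hPSC, at 7.48 and 6.22 in aNE and at 7.35 and 6.40 in pNE. COL14A1 at day 4 was at 1.97 and 2.23 in aNE_T, 5.12 and 6.50 in aNE_M, 6.08 and 3.62 in aNE_H, 20.0 and 24.4 in pNE_T, 63.0 and 68.6 in pNE_M and 32.4 and 34.8 in pNE_H. COL14A1, a FACIT collagen of skin and tendon fibrils, fell from hPSC in aNE (-1.15 ± 0.18) and pNE (-1.15 ± 0.18). It then rose in pNE in every medium, most in pNE_M (3.09 ± 0.18), and fell in aNE_T (-1.34 ± 0.18). The pNE-derived groups were above their aNE-derived counterparts by 2.90 ± 0.18, 3.30 ± 0.18 and 2.60 ± 0.18 in forebrain, midbrain and hindbrain medium. All 6 pNE-derived libraries lay above all 6 aNE-derived ones.

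Other FACIT collagens stayed under 10 TPM. COL16A1, COL20A1, COL21A1 and COL22A1 were each called in some comparison, with highest group means of 5.42 TPM in pNE, 1.96 in aNE, 2.67 in pNE and 4.80 in pNE_H. COL20A1 rose in aNE (1.28 ± 0.24) and pNE (1.17 ± 0.24) and fell in 5 of the 6 changes to day 4. COL21A1 was higher in pNE-derived than aNE-derived cells in all 3 media (1.24 ± 0.31, 1.07 ± 0.31 and 1.16 ± 0.31). COL19A1 was not tested.

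Type VI collagen forms beaded filaments around cells from 1 chain each of COL6A1, COL6A2 and 1 more gene, mostly COL6A3. In hPSC, COL6A1 measured 88.3 and 81.8 TPM, against 35.5 and 33.3 in aNE and 22.4 and 31.4 in pNE. Day-4 values of COL6A1 were 31.0 and 30.8 in aNE_T, 13.7 and 13.9 in aNE_M, 23.2 and 18.4 in aNE_H, 27.8 and 30.8 in pNE_T, 24.0 and 21.7 in pNE_M and 40.3 and 32.8 in pNE_H. The hPSC libraries were the highest, and COL6A1 fell in aNE (log2 fold change -1.28 ± 0.15, adjusted p = 1.9e-05) and pNE (log2 fold change -1.64 ± 0.15, adjusted p = 2.2e-06). COL6A2 levels were 63.2 and 55.7 TPM in hPSC, 20.8 and 15.2 in aNE and 15.5 and 22.4 in pNE. Levels of COL6A2 at day 4 were 22.8 and 20.1 in aNE_T, 8.41 and 6.09 in aNE_M, 10.7 and 8.75 in aNE_H, 16.8 and 19.2 in pNE_T, 10.5 and 9.79 in pNE_M and 26.6 and 19.5 in pNE_H. COL6A2, its neighbour on chromosome 21, showed the same order of stem cells over day 2, falling in aNE (log2 fold change -1.68 ± 0.21, adjusted p = 3.2e-05) and pNE (log2 fold change -1.62 ± 0.21, adjusted p = 4.9e-05). The COL6A2 to COL6A1 ratio lay between 0.437 and 0.737. Both fell further from aNE to aNE_M, with -1.26 ± 0.15 for COL6A1 and -1.20 ± 0.21 for COL6A2. The second call ended at -0.99 without aNE replicate 1 and -0.9988 without aNE_M replicate 2.

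COL6A3 was at 1.97 and 2.78 TPM in the 2 hPSC libraries, 1.11 and 0.991 in aNE and 2.54 and 2.69 in pNE. At day 4, COL6A3 measured 0.664 and 0.544 in aNE_T, 15.9 and 19.3 in aNE_M, 2.93 and 2.83 in aNE_H, 1.07 and 1.12 in pNE_T, 3.18 and 3.12 in pNE_M and 0.541 and 1.305 in pNE_H. COL6A3 (chr2:237324018-237414164) went the other way in aNE_M, where its libraries were above all others. It rose there from aNE (log2 fold change 3.17 ± 0.19, adjusted p = 4.7e-08), and aNE_M was above aNE_T (log2 fold change 3.53 ± 0.19, adjusted p = 1.7e-08) while pNE_M was below aNE_M (log2 fold change -2.16 ± 0.19, adjusted p = 4.4e-06). The 10 mesoderm markers summed to 99.8 to 122 TPM in aNE_M and 4.998 to 51.5 TPM in all other libraries, with MIXL1 at 86.5 ± 12.0 and TBXT at 3.36 ± 0.910 TPM in aNE_M. The 10 neural crest and mesenchyme markers summed to 161 to 173 TPM in aNE_M and 63.8 to 156 TPM in all other libraries. Of them 3 rose and 2 fell in aNE_M against aNE, with PAX3 at 0.538 ± 0.0888 TPM in aNE and 125 ± 6.78 in aNE_M, and NGFR at 53.2 ± 0.504 and 20.9 ± 0.242. The part of both lists in the COL6A3 level was not tested. COL6A5 and COL6A6 were not tested.

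COL7A1 stood at 3.06 and 3.14 TPM in hPSC, at 23.6 and 19.5 in aNE and at 15.8 and 26.9 in pNE. COL7A1 at day 4 was at 14.5 and 13.0 in aNE_T, 12.0 and 12.3 in aNE_M, 11.6 and 11.5 in aNE_H, 20.0 and 16.3 in pNE_T, 10.1 and 10.4 in pNE_M and 10.9 and 12.1 in pNE_H. COL7A1, the collagen of the anchoring fibrils under skin epithelium, rose in aNE (log2 fold change 2.45 ± 0.19, adjusted p = 4.4e-07) and pNE (log2 fold change 2.3998 ± 0.19, adjusted p = 5.8e-07) and was called in no later comparison. The surface ectoderm genes TP63, KRT5 and KRT14 were under 1 TPM as means in every group, whereas KRT8 and KRT18 were at 282 TPM or more. Type VIII and X collagens, which form hexagonal nets, stayed under 10 TPM. COL8A1, which passed the filter only because of aNE_T, had its highest mean in that group, where it rose from aNE (1.35 ± 0.23). COL8A2, which passed the filter through hPSC alone, fell from hPSC in aNE (-1.31 ± 0.17) and pNE (-1.35 ± 0.17), and COL10A1 was called nowhere.

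Transmembrane collagens stand in the cell membrane, and COL25A1 gave the widest contrast among them. In hPSC, COL25A1 measured 1.95 and 2.19 TPM, against 2.44 and 0.420 in aNE and 0.911 and 0.444 in pNE. Day-4 values of COL25A1 were 3.83 and 2.84 in aNE_T, 0.228 and 0.750 in aNE_M, 0.828 and 1.101 in aNE_H, 57.6 and 61.8 in pNE_T, 1.90 and 2.65 in pNE_M and 57.4 and 59.6 in pNE_H. The 4 libraries of pNE_T and pNE_H were above 57 TPM and the other 14 under 4 TPM. COL25A1 (chr4:108808725-109302658) encodes a collagen of neurons, needed for motor nerves to reach muscle. It rose from pNE in pNE_T (log2 fold change 5.19 ± 0.33, adjusted p = 8.9e-08) and pNE_H (log2 fold change 5.16 ± 0.33, adjusted p = 6.8e-08), and pNE_M was below pNE_T (log2 fold change -4.22 ± 0.33, adjusted p = 6.0e-07). Against the aNE-derived group of the same medium the difference was 3.81 ± 0.33 in forebrain, 1.15 ± 0.33 in midbrain and 4.92 ± 0.33 in hindbrain medium. The midbrain-medium call ended at 0.90 without aNE_M replicate 1, 1.32 without pNE_M replicate 1 and 0.98 without pNE_M replicate 2.

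COL13A1 levels were 3.89 and 2.49 TPM in hPSC, 3.81 and 3.52 in aNE and 4.08 and 6.24 in pNE. The day-4 levels of COL13A1 were 1.72 and 2.02 in aNE_T, 0.977 and 5.66 in aNE_M, 3.29 and 1.53 in aNE_H, 4.63 and 8.89 in pNE_T, 12.9 and 12.9 in pNE_M and 23.6 and 21.3 in pNE_H. COL13A1, a transmembrane collagen of the nerve-muscle junction, was highest in pNE_H and rose there from pNE (log2 fold change 1.95 ± 0.45, adjusted p = 0.0043). pNE-derived cells were above aNE-derived cells by 1.38 ± 0.45 in forebrain, 1.94 ± 0.45 in midbrain and 2.83 ± 0.45 in hindbrain medium, with adjusted p of 0.046, 0.0095 and 5.2e-04. The 2 aNE_M libraries were far apart. The forebrain-medium call ended at 1.31 without aNE_T replicate 1, 1.46 without aNE_T replicate 2 and 0.97 without pNE_T replicate 2, and the midbrain-medium call at 1.06 without aNE_M replicate 1, 1.93 without pNE_M replicate 1 and 1.94 without pNE_M replicate 2. Below 10 TPM, COL17A1, the collagen of hemidesmosomes, rose in aNE (1.53 ± 0.26) and pNE (1.0951 ± 0.26), and COL23A1 fell in both (-1.70 ± 0.27 and -1.06 ± 0.27). COL23A1 was above forebrain medium in midbrain and hindbrain medium in both origins, with pNE_M the highest group at 7.01 TPM.

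COL18A1 was at 181 and 179.6 TPM in the 2 hPSC libraries, 229 and 225 in aNE and 222 and 296 in pNE. At day 4, COL18A1 measured 333 and 323 in aNE_T, 199.8 and 176 in aNE_M, 281 and 243 in aNE_H, 591 and 618 in pNE_T, 299 and 310.2 in pNE_M and 442 and 386 in pNE_H. COL18A1, the basement membrane collagen whose end fragment is endostatin, was the most abundant collagen by mean share. Only 1 comparison called it, the rise in pNE_T against pNE (log2 fold change 1.23 ± 0.12, adjusted p = 3.8e-06). It overlaps SLC19A1 on the other strand. COL26A1 stood at 102 and 101 TPM in hPSC, at 134 and 123 in aNE and at 138 and 154 in pNE. COL26A1 at day 4 was at 336 and 349.6 in aNE_T, 125 and 116 in aNE_M, 214 and 218 in aNE_H, 235 and 269.9 in pNE_T, 87.0 and 91.5 in pNE_M and 177 and 157 in pNE_H. COL26A1, a secreted collagen of which less is known, was highest in aNE_T, where it rose from aNE (log2 fold change 1.41 ± 0.08, adjusted p = 6.8e-08). Midbrain medium was below forebrain medium in aNE (-1.5032 ± 0.08) and pNE (-1.49 ± 0.08). The last of the class, COL28A1, reached 2.91 TPM in pNE_M, where it was above pNE (1.62 ± 0.31). It was under 1 TPM as a mean in every other group, so it was tested only because of the group where it is high. COL15A1 was not tested.

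Integrin alpha subunits that bind laminin are ITGA3, ITGA6 and ITGA7. In hPSC, ITGA6 measured 75.3 and 74.8 TPM, against 89.5 and 84.6 in aNE and 90.6 and 91.6 in pNE. Day-4 values of ITGA6 were 23.8 and 19.9 in aNE_T, 16.1 and 21.2 in aNE_M, 13.3 and 10.7 in aNE_H, 20.1 and 14.8 in pNE_T, 13.4 and 15.7 in pNE_M and 4.41 and 4.68 in pNE_H. ITGA6 (chr2:172427336-172506459), a surface protein of pluripotent and neural stem cells, was called in neither comparison of day 2 with hPSC. All 12 day-4 libraries were under 24 TPM and all 6 earlier ones above 74 TPM. ITGA6 fell in each medium, with log2 fold changes of -1.95 ± 0.16, -2.18 ± 0.16 and -2.77 ± 0.16 in aNE_T, aNE_M and aNE_H, and of -2.34 ± 0.16, -2.57 ± 0.16 and -4.06 ± 0.16 in pNE_T, pNE_M and pNE_H, with adjusted p of at most 1.1e-06. pNE_H was below aNE_H (log2 fold change -1.22 ± 0.16, adjusted p = 8.2e-05) and below pNE_T (log2 fold change -1.72 ± 0.16, adjusted p = 6.6e-06).

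ITGA3 levels were 13.1 and 12.9 TPM in hPSC, 16.5 and 16.6 in aNE and 24.0 and 24.4 in pNE. Levels of ITGA3 at day 4 were 32.4 and 35.5 in aNE_T, 5.97 and 7.28 in aNE_M, 8.41 and 6.27 in aNE_H, 26.1 and 26.0 in pNE_T, 2.80 and 2.22 in pNE_M and 14.6 and 14.8 in pNE_H. ITGA3 (chr17:50056110-50090481), which pairs with ITGB1 and binds the LAMA5 laminins, lies 92807 bases from COL1A1 by the spans of GENCODE v29. It was lowest in pNE_M, where it fell from pNE (log2 fold change -2.85 ± 0.13, adjusted p = 3.1e-09), and it also fell in aNE_M (-1.21 ± 0.13) and aNE_H (-1.09 ± 0.13, ending at -0.90 without aNE_H replicate 2). ITGA3 was lower in midbrain than in forebrain medium in aNE (-2.20 ± 0.13) and pNE (-2.95 ± 0.13). ITGA7 was at 25.8 and 32.3 TPM in the 2 hPSC libraries, 66.9 and 69.0 in aNE and 66.6 and 63.0 in pNE. At day 4, ITGA7 measured 86.7 and 77.8 in aNE_T, 55.4 and 55.3 in aNE_M, 38.6 and 40.2 in aNE_H, 51.2 and 54.1 in pNE_T, 43.3 and 33.7 in pNE_M and 28.1 and 30.1 in pNE_H. ITGA7, the laminin receptor of muscle, rose in aNE (log2 fold change 1.21 ± 0.12, adjusted p = 4.1e-06) and pNE (log2 fold change 1.14 ± 0.12, adjusted p = 7.4e-06). It fell in pNE_H (-1.13 ± 0.12), and aNE_H was below aNE_T (-1.04 ± 0.12). The pNE call against hPSC ended at 0.98 without hPSC replicate 1, and the aNE_H call against aNE_T at -0.96 without aNE_T replicate 1. BLOC1S1 overlaps it on the other strand, at up to 141 TPM.

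Collagen-binding alpha subunits were low. ITGA1 stood at 2.51 and 1.80 TPM in hPSC, at 2.80 and 4.15 in aNE and at 4.32 and 6.24 in pNE. ITGA1 at day 4 was at 5.08 and 4.52 in aNE_T, 1.66 and 1.70 in aNE_M, 6.13 and 3.18 in aNE_H, 15.8 and 14.4 in pNE_T, 7.08 and 8.62 in pNE_M and 7.69 and 6.94 in pNE_H. ITGA1, a receptor with a taste for type IV collagen, was highest in pNE_T, where it rose from pNE (log2 fold change 1.37 ± 0.24, adjusted p = 7.5e-04). pNE_T was above aNE_T (log2 fold change 1.47 ± 0.24, adjusted p = 6.3e-04) and pNE_M above aNE_M (log2 fold change 1.72 ± 0.24, adjusted p = 2.4e-04). PELO lies within ITGA1 on the same strand. ITGA2, next to it on chromosome 5, reached 2.99 TPM at most, in hPSC, and was below forebrain medium in hindbrain medium in both origins (-1.17 ± 0.22 and -1.03 ± 0.22). ITGA10 and ITGA11 were not tested.

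The RGD-binding alpha subunits read fibronectin, vitronectin and related proteins. In hPSC, ITGA5 measured 19.8 and 17.9 TPM, against 75.4 and 76.9 in aNE and 111 and 121 in pNE. Day-4 values of ITGA5 were 121 and 117 in aNE_T, 66.4 and 75.1 in aNE_M, 78.1 and 69.5 in aNE_H, 162 and 163 in pNE_T, 69.0 and 67.3 in pNE_M and 86.8 and 84.1 in pNE_H. ITGA5, the fibronectin receptor's alpha subunit, rose in aNE (log2 fold change 1.96 ± 0.08, adjusted p = 1.1e-09) and pNE (log2 fold change 2.56 ± 0.08, adjusted p = 8.0e-11), and its hPSC libraries were below all others. pNE_M was below pNE_T (log2 fold change -1.24 ± 0.08, adjusted p = 1.0e-07). The ITGA5 to ITGA6 ratio was 0.263 and 0.239 in hPSC, 0.843 and 0.909 in aNE and 1.22 and 1.32 in pNE. At day 4 it was 3.55 or more in every library, and 19.7 and 17.98 in pNE_H. Transcripts of the fibronectin-type alpha subunit thus outnumbered those of ITGA6 in every day-4 library and in neither hPSC library.

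ITGA8 levels were 0 and 0 TPM in hPSC, 0 and 0.0135 in aNE and 0.646 and 0.344 in pNE. The day-4 levels of ITGA8 were 0.382 and 0.324 in aNE_T, 38.5 and 44.7 in aNE_M, 41.0 and 37.8 in aNE_H, 24.2 and 26.7 in pNE_T, 24.998 and 31.4 in pNE_M and 65.9 and 71.1 in pNE_H. ITGA8 (chr10:15513954-15719922), a receptor for nephronectin in the kidney that is also found on neurons, was listed at 0 in both hPSC libraries and stayed under 1 TPM in aNE, pNE and aNE_T. The other 10 libraries were all above 24 TPM. It rose from day 2 in aNE_M (log2 fold change 5.40 ± 0.14, adjusted p = 2.3e-11), aNE_H (log2 fold change 5.32 ± 0.14, adjusted p = 3.7e-11), pNE_T (log2 fold change 4.15 ± 0.14, adjusted p = 4.2e-10), pNE_M (log2 fold change 4.29 ± 0.14, adjusted p = 1.6e-10) and pNE_H (log2 fold change 5.55 ± 0.14, adjusted p = 3.4e-11). In aNE_T the change was 0.43 ± 0.14, adjusted p = 0.036. pNE_T was above aNE_T (log2 fold change 4.29 ± 0.14, adjusted p = 2.2e-10), while the midbrain-medium difference between origins was -0.55 ± 0.14, adjusted p = 0.017 and the hindbrain-medium one 0.78 ± 0.14, adjusted p = 0.0013, both under the fold threshold.

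ITGAV was at 19.8 and 18.7 TPM in the 2 hPSC libraries, 28.7 and 29.1 in aNE and 36.4 and 35.9 in pNE. At day 4, ITGAV measured 68.7 and 71.1 in aNE_T, 35.1 and 32.5 in aNE_M, 53.3 and 47.4 in aNE_H, 45.6 and 43.5 in pNE_T, 22.2 and 23.1 in pNE_M and 32.6 and 32.6 in pNE_H. ITGAV, the alpha subunit that joins ITGB5, ITGB8 and others, was highest in aNE_T, where it rose from aNE (log2 fold change 1.25 ± 0.07, adjusted p = 6.7e-08). aNE_M was below aNE_T (log2 fold change -1.03 ± 0.07, adjusted p = 2.5e-07), a call that ended at -0.98 without aNE_M replicate 2. ITGA2B, the platelet subunit, reached 4.12 TPM at most, in hPSC, and fell in aNE_H against aNE (-1.22 ± 0.38).

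ITGA4 and ITGA9 form a class of their own and bind, among others, alternatively spliced fibronectin, tenascin C and osteopontin. ITGA9 stood at 2.502 and 3.13 TPM in hPSC, at 0.946 and 0.752 in aNE and at 2.66 and 2.49 in pNE. ITGA9 at day 4 was at 2.56 and 2.05 in aNE_T, 1.02 and 0.940 in aNE_M, 2.65 and 1.16 in aNE_H, 21.8 and 24.9 in pNE_T, 9.62 and 12.0 in pNE_M and 47.9 and 46.4 in pNE_H. ITGA9 (chr3:37452141-37823507) fell in aNE against hPSC (-1.04 ± 0.21, ending at -0.92 without hPSC replicate 2 and -0.97 without aNE replicate 2) and rose in all 3 media in pNE, by 2.76 ± 0.21, 1.72 ± 0.21 and 3.75 ± 0.21 in T, M and H. pNE-derived cells were above aNE-derived cells by 2.88 ± 0.21 in forebrain, 2.57 ± 0.21 in midbrain and 4.10 ± 0.21 in hindbrain medium, with adjusted p of at most 1.8e-06.

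In hPSC, ITGA4 measured 3.04 and 2.43 TPM, against 1.75 and 0.940 in aNE and 2.42 and 2.08 in pNE. Day-4 values of ITGA4 were 0.594 and 0.646 in aNE_T, 3.22 and 3.10 in aNE_M, 1.88 and 2.05 in aNE_H, 7.35 and 6.24 in pNE_T, 10.9 and 12.9 in pNE_M and 25.6 and 29.9 in pNE_H. ITGA4, the subunit that also marks migrating crest and blood cells, was likewise higher in the pNE-derived groups. It rose from pNE by 1.26 ± 0.18, 1.99 ± 0.18 and 3.14 ± 0.18 in T, M and H, and the origins differed by 2.26 ± 0.18, 1.63 ± 0.18 and 3.27 ± 0.18. All 6 pNE-derived libraries were above all 6 aNE-derived ones for both genes. Of their ligand genes, TNC (tenascin C) was at 63.2 ± 1.82, 79.4 ± 15.6 and 51.6 ± 5.47 TPM in aNE_T, aNE_M and aNE_H and 269 ± 12.7, 85.5 ± 8.02 and 157 ± 15.99 in pNE_T, pNE_M and pNE_H. SPP1 (osteopontin) was at 71.8 ± 0.0876, 12.6 ± 1.71 and 54.7 ± 6.22 TPM in the aNE-derived and 430.1 ± 69.5, 77.4 ± 11.8 and 253 ± 44.5 in the pNE-derived groups, in the same order. FN1 (fibronectin) was at 168 ± 5.48, 36.4 ± 8.71 and 111 ± 4.82 TPM in the aNE-derived and 67.5 ± 9.11, 44.6 ± 1.03 and 254 ± 27.5 in the pNE-derived groups, again in that order. SPP1 was higher in the pNE-derived group in all 3 media (log2 fold changes 2.56, 2.52 and 2.18) and TNC in forebrain (2.07) and hindbrain medium (1.59). FN1 was lower in pNE_T than in aNE_T (-1.3039), higher in pNE_H than in aNE_H (1.19) and not called between pNE_M and aNE_M.

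Leukocyte integrins were low with the exception of ITGAE, a subunit named for lymphocytes in epithelia, which ranged from 26.9 to 55.9 TPM and was called nowhere. Its gene holds HASPIN on the other strand. ITGAD and ITGAL were tested and called nowhere, ITGAM and ITGAX were not tested, and ITGB2, their common beta subunit, had a highest group mean of 4.79 TPM in pNE_T. Of the 9 endothelium and blood markers SPI1 was listed at 0 or under 0.2 TPM as a group mean throughout, PTPRC was at 6.02 ± 1.68 TPM at most, in aNE, and CDH5 at 23.1 ± 0.331 in pNE_T. The list summed to 10.9 to 52.0 TPM over the libraries.

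ITGB1 levels were 169 and 172 TPM in hPSC, 131 and 135 in aNE and 154 and 138 in pNE. Levels of ITGB1 at day 4 were 288 and 299 in aNE_T, 193 and 227 in aNE_M, 278 and 279 in aNE_H, 375 and 386 in pNE_T, 171 and 180.1 in pNE_M and 339.7 and 384 in pNE_H. ITGB1, the partner of most alpha subunits, was the most abundant integrin in every group. It rose from day 2 in forebrain medium in aNE (log2 fold change 1.14 ± 0.08, adjusted p = 3.6e-07) and pNE (log2 fold change 1.38 ± 0.08, adjusted p = 5.2e-08) and in hindbrain medium in aNE (log2 fold change 1.06 ± 0.08, adjusted p = 6.3e-07) and pNE (log2 fold change 1.3028 ± 0.08, adjusted p = 6.4e-08), while midbrain medium gave 0.65 ± 0.08, adjusted p = 3.7e-05 in aNE and 0.27 ± 0.08, adjusted p = 0.022 in pNE. The pseudogene ITGB1P1, which shares sequence with it, was listed at 0 to 29.8 TPM, and how reads were shared between the 2 is not given in the sources used here.

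ITGB5 was at 159 and 148 TPM in the 2 hPSC libraries, 92.4 and 86.5 in aNE and 101 and 112 in pNE. At day 4, ITGB5 measured 249 and 224 in aNE_T, 85.3 and 88.5 in aNE_M, 146 and 128 in aNE_H, 47.9 and 44.7 in pNE_T, 109.9 and 97.4 in pNE_M and 37.3 and 27.4 in pNE_H. ITGB5 (chr3:124761948-124901418), which with ITGAV binds vitronectin, moved in opposite directions in the 2 origins in forebrain medium. It rose in aNE_T (log2 fold change 1.39 ± 0.12, adjusted p = 2.3e-06) and fell in pNE_T (log2 fold change -1.18 ± 0.12, adjusted p = 8.9e-06) and pNE_H (log2 fold change -1.70 ± 0.12, adjusted p = 2.4e-07). pNE_T was below aNE_T (log2 fold change -2.33 ± 0.12, adjusted p = 1.7e-08) and pNE_H below aNE_H (log2 fold change -2.06 ± 0.12, adjusted p = 7.1e-08), and the midbrain-medium difference was 0.25 ± 0.12, adjusted p = 0.21. ITGB8 reached 5.64 TPM in aNE_T at most and was lower in hindbrain than in forebrain medium in aNE (-1.21 ± 0.23) and pNE (-1.08 ± 0.23). ITGB4, the hemidesmosome subunit, was called nowhere, and ITGB3, ITGB6, ITGB7 and ITGBL1 were not tested.

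**Figure D4:**
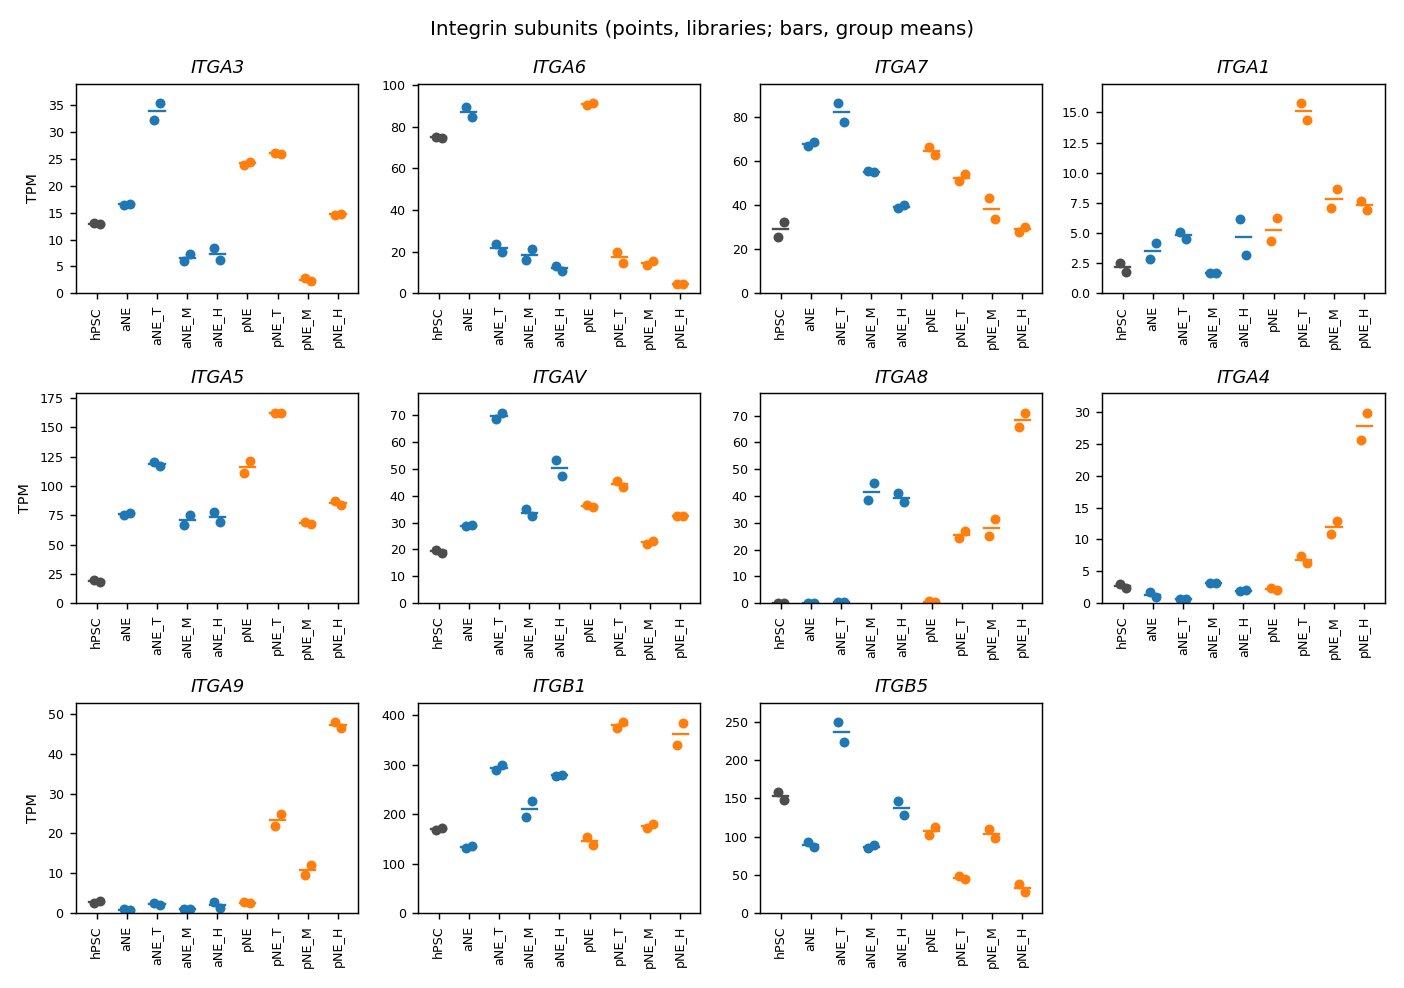
Integrin subunits with a group mean of at least 10 TPM and a call, in TPM, with each y axis from 0. Points are the 2 libraries of a group and bars the group mean, in grey for hPSC, blue for aNE and its derivatives and orange for pNE and its derivatives. ITGA6 is high before day 4 only, ITGA8 is near 0 up to day 2 and in aNE_T, and ITGA4 and ITGA9 are highest in pNE_H.

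The step from stem cells to day 2 raised the basement membrane chains COL4A1, COL4A2, COL4A5, COL4A6, LAMA5 and LAMB1, the cartilage-type chains COL2A1 and COL11A1, COL7A1, COL12A1 and the receptors ITGA5 and ITGA7 in both origins. LAMC3, COL6A1, COL6A2, COL5A2 and COL14A1 fell in both. In all, 27 of the 65 tested members (18 higher and 9 lower) were called in aNE against hPSC, 41.5% beside 13.5% of all tested genes, and the median log2 fold change was 0.27 over the tested members and 0.06 over all tested genes. In pNE against hPSC the count was 23 of the 65 tested members (15 higher and 8 lower), 35.4% beside 12.9%, and the median 0.29 over the tested members and 0.05 over all tested genes. The 2 comparisons share the hPSC libraries.

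Other genes of the matrix were taken in 4 lists: 23 basement membrane partners, 19 tested integrin ligands beyond the members, 30 tested collagen-processing genes and 24 genes of the adhesion machinery inside the cell. In aNE against hPSC the basement membrane partners had 7 higher and 3 lower (median 0.68), the other ligands 7 higher and 6 lower (median 0.48), collagen processing 6 higher and 2 lower (median 0.08) and the adhesion machinery 2 higher and 1 lower (median 0.18). In pNE against hPSC the counts were 7 higher and 2 lower (median 0.29), 7 higher and 5 lower (median 0.35), 3 higher and 1 lower (median 0.13) and 3 higher and 1 lower (median 0.40) in the same order. The calls were 43.5%, 68.4%, 26.7% and 12.5% of the 4 lists in aNE, beside 13.5% of all tested genes, and 39.1%, 63.2%, 13.3% and 16.7% in pNE, beside 12.9%. The adhesion machinery in aNE and collagen processing in pNE were thus near the background. NID2, which links laminin to type IV collagen, rose by 2.21 on the log2 scale in aNE and 3.03 in pNE, and AGRN (agrin) was at 107 ± 3.50 TPM in hPSC and 373 ± 15.5 in aNE. TNC rose by 3.25 and 3.38. CD9, a tetraspanin that sits beside integrins, fell in aNE (-4.07) and pNE (-3.65), from 181 ± 4.73 TPM in hPSC to 9.90 ± 1.40 in aNE and 13.6 ± 2.98 in pNE.

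At day 2 the 2 origins differed in few members, among them COL9A3 and COL9A2, which were lower in pNE. This made 3 of the 65 tested members (0 higher and 3 lower) called, 4.62% beside 3.85% of all tested genes, a share near the background, and the median was 0.03 over the tested members and -0.01 over all tested genes. At an unadjusted p under 0.05, 21 members were counted, 32.3% beside 25.8% of all tested genes. Of the other genes, 2 basement membrane partners were lower and 2 other ligands higher, with 0 calls among collagen processing and the adhesion machinery. One of those lower was SMOC1, a matrix protein of basement membranes, at 32.3 ± 1.27 TPM in aNE and 1.66 ± 0.266 in pNE.

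From day 2 to day 4 in aNE, the rises of ITGAV, ITGB5, COL26A1, COL9A1 and LAMB2 were called in forebrain medium only. In hindbrain medium ITGAV (0.78 ± 0.07), COL26A1 (0.74 ± 0.08) and ITGB5 (0.61 ± 0.12) also rose, with adjusted p under 0.05 but under the fold threshold. None of these genes was called between aNE_H and aNE_T, while all but LAMB2 were called lower in aNE_M than in aNE_T. In aNE_T against aNE 17 of the 65 tested members (12 higher and 5 lower) were called, 26.2% beside 9.03% of all tested genes (median 0.25 over the tested members and 0.00 over all tested genes). In aNE_M against aNE the count was 21 of the 65 tested members (7 higher and 14 lower), 32.3% beside 12% (median -0.21 over the tested members and -0.02 over all tested genes), with ITGA8, COL5A2 and COL6A3 as the largest rises. In aNE_H against aNE it was 18 of the 65 tested members (9 higher and 9 lower), 27.7% beside 10.1% (median -0.13 over the tested members and -0.04 over all tested genes), led by ITGA8 and by the fall of ITGA6. These 3 comparisons share the aNE libraries. The basement membrane partners had 4 higher and 4 lower (median 0.32) in aNE_T, 3 higher and 6 lower (median -0.29) in aNE_M and 4 higher and 6 lower (median -0.32) in aNE_H, and the other ligands 7 higher and 2 lower (median 0.97), 8 higher and 5 lower (median 0.26) and 6 higher and 3 lower (median 0.23). Collagen processing had 5 higher and 3 lower (median 0.33), 5 higher and 2 lower (median 0.39) and 3 higher and 2 lower (median 0.24), and the adhesion machinery 4 higher and 4 lower (median 0.40), 0 higher and 5 lower (median -0.22) and 1 higher and 2 lower (median 0.06). Set against the list sizes given above, the calls of the adhesion machinery in aNE_H were near the 10.1% of all tested genes. In aNE_M the matricellular genes CCN1 (-4.13), THBS1 (-3.33) and CCN2 (-3.03) had the largest falls among the ligands, and EGFLAM (pikachurin), a binding partner of dystroglycan, rose from 0.673 ± 0.123 to 70.0 ± 2.87 TPM.

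From day 2 to day 4 in pNE, COL25A1 and ITGA8 led in forebrain and hindbrain medium, and ITGA8, COL3A1 and COL14A1 in midbrain medium. In pNE_T against pNE 23 of the 65 tested members (14 higher and 9 lower) were called, 35.4% beside 10.2% of all tested genes (median 0.10 over the tested members and -0.03 over all tested genes). In pNE_M against pNE the count was 24 of the 65 tested members (14 higher and 10 lower), 36.9% beside 12.7% (median -0.16 over the tested members and -0.06 over all tested genes), and in pNE_H against pNE 22 of the 65 tested members (13 higher and 9 lower), 33.8% beside 12.3% (median -0.16 over the tested members and -0.08 over all tested genes). These 3 share the pNE libraries. The basement membrane partners had 3 higher and 1 lower (median -0.06) in pNE_T, 6 higher and 5 lower (median -0.29) in pNE_M and 4 higher and 6 lower (median -0.20) in pNE_H, and the other ligands 8 higher and 1 lower (median 0.81), 7 higher and 3 lower (median 0.36) and 7 higher and 3 lower (median 0.31). Collagen processing had 4 higher and 2 lower (median 0.31), 2 higher and 2 lower (median 0.19) and 3 higher and 3 lower (median 0.15), and the adhesion machinery 1 higher and 2 lower (median 0.34), 1 higher and 4 lower (median -0.38) and 0 higher and 3 lower (median -0.28). Set against the list sizes, collagen processing in pNE_M and the adhesion machinery in pNE_T and pNE_H were near the share of all tested genes. NID2 fell in each medium (log2 fold changes -2.97, -3.06 and -3.49), and FN1 (fibronectin) rose in pNE_H by 3.34, from 24.2 ± 1.11 to 254 ± 27.5 TPM.

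The aNE and pNE responses to a medium share no libraries, so the members called the same way in both can be counted. In forebrain medium these were 8 members (12.3%, beside 3.79% of all tested genes): COL2A1, COL5A2, COL11A1, COL12A1 and ITGB1 rose, and COL1A1, COL20A1 and ITGA6 fell. In midbrain medium they were 14 (21.5% beside 6.24%), among which COL1A2, COL2A1, COL5A2, COL9A2, COL23A1 and ITGA8 rose, and COL1A1, COL9A3, COL16A1, COL17A1, ITGA3, ITGA6 and LAMA5 fell. In hindbrain medium they were 13 (20.0% beside 4.98%), among which COL1A2, COL2A1, COL5A2, COL9A2, COL11A1, COL12A1, ITGA8 and ITGB1 rose, and COL9A3, COL17A1, COL20A1 and ITGA6 fell. Opposite calls were made for 2 members in forebrain medium (COL14A1 and ITGB5), for 1 in midbrain medium (COL12A1) and for 0 in hindbrain medium. COL2A1 and COL5A2 rose and ITGA6 fell in all 6 changes. Leaving out 1 library ended the call of COL11A1 in pNE_T (0.97 without pNE replicate 1 and 0.95 without pNE_T replicate 2) and that of COL5A2 in aNE_H (0.87 without aNE replicate 2).

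Between media, midbrain medium gave lower levels of many matrix genes than forebrain medium in aNE, and a more even split in pNE. In pNE 7 collagens were higher and 5 lower, 1 integrin higher and 4 lower, and 0 laminins higher and 1 lower. In aNE_M against aNE_T 26 of the 65 tested members (6 higher and 20 lower) were called, 40.0% beside 10.1% of all tested genes, with a median of -0.56 over the tested members and -0.04 over all tested genes. COL12A1, COL11A1, ITGA3, COL9A3 and COL9A1 were lower in aNE_M than in aNE_T, with log2 fold changes of -2.88 ± 0.16, -2.42 ± 0.14, -2.20 ± 0.13, -1.87 ± 0.19 and -1.62 ± 0.13. In pNE_M against pNE_T the count was 18 of the 65 tested members (8 higher and 10 lower), 27.7% beside 8.6% (median -0.40 over the tested members and -0.03 over all tested genes). In aNE_H against aNE_T it was 16 of the 65 tested members (4 higher and 12 lower), 24.6% beside 6.6% (median -0.39 over the tested members and -0.07 over all tested genes), and in pNE_H against pNE_T 9 of the 65 tested members (6 higher and 3 lower), 13.8% beside 5.03% (median -0.26 over the tested members and -0.04 over all tested genes). Comparisons within an origin share the forebrain-medium libraries.

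In aNE_M against aNE_T the basement membrane partners had 3 higher and 9 lower (median -0.53), the other ligands 4 higher and 7 lower (median -0.82), collagen processing 3 higher and 3 lower (median 0.13) and the adhesion machinery 1 higher and 9 lower (median -0.51). The same order gave 5 higher and 4 lower (median -0.20), 2 higher and 6 lower (median -0.46), 0 higher and 3 lower (median 0.04) and 0 higher and 5 lower (median -0.43) in pNE_M against pNE_T. Hindbrain medium against forebrain medium gave 2 higher and 3 lower (median -0.42), 1 higher and 3 lower (median -0.48), 0 higher and 2 lower (median -0.11) and 0 higher and 3 lower (median -0.24) in aNE and 3 higher and 2 lower (median -0.49), 2 higher and 4 lower (median -0.26), 0 higher and 4 lower (median 0.00) and 0 higher and 3 lower (median -0.41) in pNE. Of all tested genes, 10.1% were called in aNE_M and 6.6% in aNE_H against aNE_T, and 8.6% in pNE_M and 5.03% in pNE_H against pNE_T. Set against the list sizes, collagen processing in pNE_M and in aNE_H was near these shares. In aNE_M against aNE_T the lower genes of the adhesion machinery were led by FERMT2 (kindlin, -2.62), LIMS2 (-2.30) and VCL (vinculin, -2.27), which join integrin tails to actin. CCN1 was at 288 ± 2.86 TPM in aNE_T and 7.53 ± 1.40 in aNE_M.

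Across the 2 origins, which share no libraries between these comparisons, 9 members were called the same way in midbrain against forebrain medium (13.8%, beside 3.75% of all tested genes). COL14A1 and COL23A1 were higher, and COL5A1, COL9A1, COL12A1, COL25A1, COL26A1, ITGA3 and LAMA5 lower. ITGB5 was called in opposite directions, lower in aNE_M (-1.43 ± 0.12) and higher in pNE_M (1.14 ± 0.12). In hindbrain against forebrain medium 4 members were called the same way (6.15% beside 1.63%), COL23A1 and ITGA8 higher and ITGA2 and ITGB8 lower. Leaving out 1 library ended the call of COL12A1 in pNE_M against pNE_T (-0.93 without pNE_T replicate 2) and that of COL14A1 in aNE_M against aNE_T (0.98 without aNE_M replicate 2).

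More members were called between the origins at day 4 than at day 2, with the plating density differing as well. In pNE_T against aNE_T 19 of the 65 tested members (10 higher and 9 lower) were called, 29.2% beside 7.77% of all tested genes (median -0.07 over the tested members and -0.05 over all tested genes). In pNE_M against aNE_M the count was 15 of the 65 tested members (11 higher and 4 lower), 23.1% beside 5.74% (median -0.03 over the tested members and -0.04 over all tested genes), and in pNE_H against aNE_H 15 of the 65 tested members (10 higher and 5 lower), 23.1% beside 6.83% (median -0.06 over the tested members and -0.04 over all tested genes). These 3 comparisons share no library. In all 3, COL12A1, COL13A1, COL14A1, COL21A1, COL25A1, ITGA4 and ITGA9 were higher in the pNE-derived group and COL9A3 lower, 8 members or 12.3%, beside 1.43% of all tested genes. Of these 8 only COL9A3 was called between pNE and aNE at day 2. ITGA9 was higher in pNE there (0.95 ± 0.21, adjusted p = 0.0088), just under the fold threshold, and the others had adjusted p of 0.095 or more.

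In the pNE-derived against the aNE-derived groups the basement membrane partners had 1 higher and 5 lower (median -0.22) in forebrain, 5 higher and 2 lower (median -0.09) in midbrain and 3 higher and 3 lower (median -0.22) in hindbrain medium. The other ligands had 5 higher and 4 lower (median 0.01), 6 higher and 1 lower (median 0.15) and 7 higher and 3 lower (median 0.29), collagen processing 2 higher and 0 lower (median 0.05), 1 higher and 3 lower (median -0.13) and 0 higher and 2 lower (median 0.00), and the adhesion machinery 1 higher and 0 lower (median -0.02), 3 higher and 0 lower (median 0.08) and 1 higher and 1 lower (median -0.06). Of all tested genes, 7.77%, 5.74% and 6.83% were called in forebrain, midbrain and hindbrain medium. Set against the list sizes, collagen processing and the adhesion machinery were near or under these shares in forebrain and hindbrain medium. FREM1, a basement membrane protein that holds epithelium to mesenchyme, was at 7.76 ± 0.210 TPM in aNE_H and 39.4 ± 4.35 in pNE_H.

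Whether the response to a medium differed between origins was tested as an interaction, the change in pNE minus the change in aNE. It was called for 14 of the 65 tested members (7 higher and 7 lower) in forebrain medium (21.5% beside 7.14% of all tested genes), 15 of the 65 tested members (11 higher and 4 lower) in midbrain medium (23.1% beside 7.02%) and 17 of the 65 tested members (10 higher and 7 lower) in hindbrain medium (26.2% beside 7.83%). The medians were -0.12 over the tested members and -0.03 over all tested genes in forebrain, 0.04 over the tested members and -0.03 over all tested genes in midbrain and 0.02 over the tested members and -0.03 over all tested genes in hindbrain medium. The interaction was called above 0 for COL12A1, COL14A1, COL25A1, ITGA4 and ITGA9 and below 0 for COL9A1 in all 3 media. A value below 0 is a smaller rise, a larger fall or a fall in place of a rise in pNE, and COL9A1 in midbrain medium fell by a called amount in pNE alone. Some of these calls ended when 1 library was left out: COL25A1 in midbrain medium (0.92 without aNE replicate 1, 1.31 without aNE_M replicate 1, 1.77 without pNE replicate 1, 1.36 without pNE replicate 2, 1.73 without pNE_M replicate 1 and 1.40 without pNE_M replicate 2), ITGA4 in midbrain medium (0.89 without aNE replicate 1), and COL9A1 in forebrain (-0.96 without pNE replicate 2), midbrain (-0.87 without pNE replicate 2) and hindbrain medium (-0.83 without pNE replicate 2 and -0.94 without pNE_H replicate 1). The interaction of COL25A1 was 4.23 ± 0.46, 1.56 ± 0.46 and 5.34 ± 0.46, that of COL14A1 2.89 ± 0.26, 3.29 ± 0.26 and 2.59 ± 0.26, and that of ITGA9 1.93 ± 0.30, 1.62 ± 0.30 and 3.15 ± 0.30, in forebrain, midbrain and hindbrain medium. For ITGB5 it was below 0 in forebrain (log2 fold change -2.58 ± 0.17, adjusted p = 4.7e-07) and hindbrain medium (log2 fold change -2.31 ± 0.17, adjusted p = 1.3e-06), where ITGB5 fell in pNE; it rose in aNE in forebrain medium, and its change in aNE_H was 0.61 ± 0.12, adjusted p = 0.0021.

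**Figure D5:**
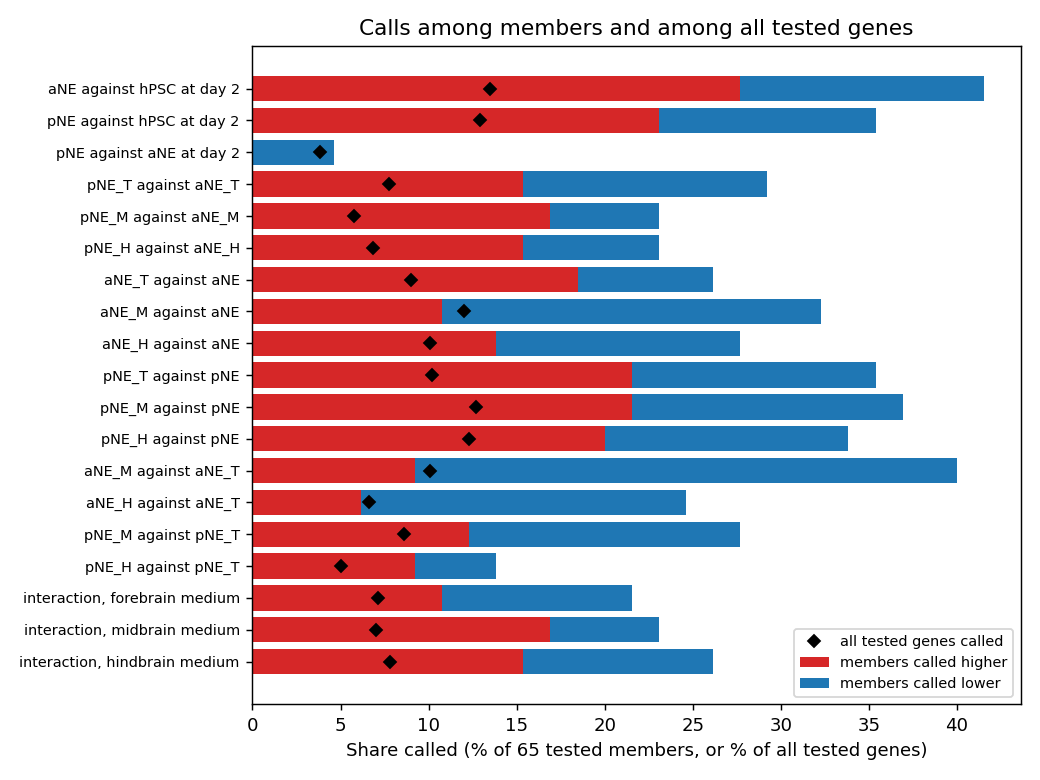
Share of the 65 tested members called higher (red) and lower (blue) in each of 19 comparisons, beside the share of all 17033 tested genes called (black diamonds), in percent from 0. The members' bars pass the diamonds in every comparison, by least in pNE against aNE at day 2 (4.62% and 3.85%).

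Among the 18 members not tested were the epidermal laminin chains LAMA3 and LAMB3, LAMB4, the type IV chains COL4A3 and COL4A4 and the type VI chains COL6A5 and COL6A6. The others were COL15A1, COL19A1, COL24A1, ITGA10, ITGA11, ITGAM, ITGAX, ITGB3, ITGB6, ITGB7 and ITGBL1. The 10 tested members called nowhere were LAMA1 and ITGAE, and COL5A3, COL10A1, COL11A2, LAMA2, ITGAD, ITGAL, ITGB2 and ITGB4, each under 5 TPM as a group mean in every group.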

How the data were processed

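RNA of 18 libraries from the H1 line (9 groups of 2 biological replicates, per the labels) was analysed as deposited. The authors deposited one table of TPM per gene, and per the submitters' processing notes bcl2fastq, FastQC, Trim Galore, kallisto, deepTools and hg38 were used. Roles, versions, annotation and strand setting are not given in the sources used here. Libraries were made from poly-A RNA with random hexamers and sequenced on an Illumina NovaSeq, per the labels' protocols. TPM keeps no depth, so no counting intervals are given.

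TPM values were analysed as log2(TPM + 1). The 17033 of 37550 genes that reached 1 TPM in 2 or more libraries were fitted with limma 3.58.1 in R 4.3.3, with 1 mean per group, a variance trend and 9 residual degrees of freedom, and two-sided p-values were adjusted by the Benjamini-Hochberg method. The fit was tested on simulated data. The labels do not say how the replicates were separated, so p-values measure the spread between these libraries. Members were named with all values if a group mean reached 10 TPM and a comparison called them; the others are counted, and a few items are not reported here. The members, gene lists and tests were chosen with earlier results of these data known. Alternatives covered the pseudocount, the filter, scaling, the variance trend, the replicate block, the libraries fitted and leaving out each library.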

Additional observations from a re-analysis of the deposited data

Results flagged for a closer look

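The values below are differences between the origins in the response to a medium: the log2(TPM + 1) change of pNE-derived cells from pNE minus the change of aNE-derived cells from aNE, tested as an interaction in limma's fit and called where the adjusted p was under 0.05 and the value 1 or more, or -1 or less. Values are given for members with a group mean of at least 10 TPM, with the library whose omission ended a call (for COL25A1, ITGA4 and COL9A1 this stands with the interactions in the results). A value below 0 can be a smaller rise, a larger fall or a fall in place of a rise. The 3 media share the day-2 libraries, and plating density cannot be told apart from origin at day 4. Each change from day 2 also holds the later day and the higher plating density.

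In forebrain medium the change in pNE was above that in aNE by 2.29 for COL1A2, 1.76 for COL12A1, 2.89 for COL14A1, 4.23 for COL25A1, 3.73 for ITGA8, 1.77 for ITGA4 and 1.93 for ITGA9. It was below for 7 members, and those at 10 TPM had -1.70 for COL5A2, -1.15 for COL9A1, -1.09 for COL9A2, -1.15 for COL9A3 and -2.58 for ITGB5. The call of COL9A2 ended without aNE_T replicate 2 (-0.98, adjusted p = 0.031). The call of COL9A3 ended without aNE replicate 1, aNE_T replicate 2, pNE replicate 2 or pNE_T replicate 1 (-0.96 to -1.12, adjusted p = 0.051 to 0.066).

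In midbrain medium it was above that in aNE by 3.27 for COL3A1, 1.97 for COL11A1, 1.21 for COL9A2, 3.54 for COL12A1, 3.29 for COL14A1, 1.05 for COL6A1, 1.56 for COL25A1, 1.23 for ITGA1, 1.14 for ITGA4 and 1.62 for ITGA9, and below it for 4 members, with -1.06 for COL9A1, -2.97 for COL6A3, -1.64 for ITGA3 and -1.11 for ITGA8. COL28A1 was a further call above 0, under 10 TPM. COL3A1 and COL28A1 had passed the filter only because of pNE_M. The call of COL6A1 ended without pNE replicate 1 or pNE_M replicate 1 (0.81 to 0.98, adjusted p = 0.016 to 0.024). The call of ITGA1 ended without aNE replicate 2, aNE_M replicate 1, aNE_M replicate 2, pNE replicate 1, pNE_M replicate 1 or pNE_M replicate 2 (1.01 to 1.36, adjusted p = 0.051 to 0.13). The call of ITGA8 ended without pNE replicate 1 or pNE_M replicate 1 (-0.96 to -0.97, adjusted p = 0.0094 to 0.013).

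In hindbrain medium the difference was above 0 by 1.03 for COL5A1, 1.23 for COL12A1, 2.59 for COL14A1, 1.15 for COL6A1, 1.09 for COL6A2, 2.45 for COL13A1, 5.34 for COL25A1, 2.78 for ITGA4 and 3.15 for ITGA9, and below 0 for 7 members, with -1.62 for COL1A1, -1.22 for COL27A1, -1.03 for COL9A1, -1 for COL9A3, -1.86 for COL6A3, -1.29 for ITGA6 and -2.31 for ITGB5. COL22A1 was a further call above 0, under 10 TPM. The call of COL5A1 ended without aNE_H replicate 2, pNE replicate 1 or pNE_H replicate 1 (0.89 to 0.98, adjusted p = 0.003 to 0.0043). The call of COL9A3 ended without aNE replicate 1, aNE replicate 2, aNE_H replicate 1, aNE_H replicate 2, pNE replicate 2 or pNE_H replicate 2 (-0.65 to -1.05, adjusted p = 0.053 to 0.093). The call of COL6A1 ended without aNE_H replicate 2 or pNE replicate 1 (0.91 to 0.99, adjusted p = 0.007 to 0.012). The call of COL6A2 ended without aNE replicate 1, aNE_H replicate 2, pNE replicate 1 or pNE_H replicate 1 (0.84 to 0.96, adjusted p = 0.085 to 0.10). The call of COL13A1 ended without aNE replicate 1, aNE replicate 2, aNE_H replicate 2, pNE replicate 1 or pNE_H replicate 1 (2.07 to 2.49, adjusted p = 0.052 to 0.08).

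COL1A1 and ITGA6 in hindbrain medium differed in size and not in sign, since both genes were lower at day 4 than at day 2 in each origin. COL14A1 and ITGB5 in forebrain medium and COL12A1 in midbrain medium were called in opposite directions in the 2 origins. Groups of 2 libraries are too small for a check of single libraries that stand apart.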

How the results depend on the processing

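Counts of called members kept within 1.5 times of the main count in all alternatives but 2. In pNE against aNE at day 2 the count was 6 with a pseudocount of 0.1, beside 3, and in pNE_H against pNE_T it was 2 when only the compared libraries were fitted, beside 9. Leaving out 1 library at a time gave 26 to 28 members in aNE against hPSC (27 with all libraries), 21 to 24 in pNE against hPSC (23) and 3 to 4 in pNE against aNE (3). Between origins at day 4 it gave 17 to 20 in forebrain (19), 11 to 14 in midbrain (15) and 14 to 15 in hindbrain medium (15). From day 2 to day 4 the ranges were 17 to 19 in aNE_T (17), 19 to 23 in aNE_M (21), 16 to 19 in aNE_H (18), 21 to 22 in pNE_T (23), 24 to 28 in pNE_M (24) and 23 to 25 in pNE_H (22). Against forebrain medium they were 23 to 26 in aNE_M (26), 13 to 16 in aNE_H (16), 17 to 19 in pNE_M (18) and 7 to 9 in pNE_H (9), and for the interactions 13 to 17 in forebrain (14), 11 to 15 in midbrain (15) and 12 to 16 in hindbrain medium (17). A group left with 1 library is assumed to vary like the others.

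For single members, 268 called differences were refitted in 3384 alternatives: 0 reversed, and 136 no longer passed the threshold, 89 of them on leaving out 1 library and 17 on fitting only the compared libraries. All 268 were differences of members with a group mean of at least 10 TPM, and single calls of members below that were not refitted. The interaction of COL25A1 in midbrain medium and that of COL9A3 in hindbrain medium were lost in 10 alternatives each. The replicate numbers did not pair the libraries, since same-numbered libraries correlated at -0.0896 to 0.0762 in their deviations from the group means over 36 pairs of groups. With the replicate number as a block, the counts were 18 in pNE_T against aNE_T, 22 in pNE_T against pNE, 14 for the midbrain-medium interaction and otherwise those given. With 2 libraries a group and no depth in TPM, a small difference could not be told from none.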
